A study of Mus musculus with 12 samples.

Results

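The lineage difference between classical dendritic cell (cDC) populations was measured at a progenitor stage and at a mature stage, and the size of the difference was compared between the stages for every gene. The contrast was (Pre-CD8 minus Pre-CD4) minus (CD24 minus CD172a), called the stage difference here, and used 9 of the 12 arrays of the series. It was computed for 22184 genes, each represented by the probe set with the highest mean among those with 1 gene symbol. All values are log2 expression, so a difference of 1 is a 2-fold difference.

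All cells came from C57Bl/6 mice heterozygous for a GFP reporter allele (Zbtb46GFP/+) of Zbtb46, which encodes a zinc finger factor of cDCs, and this allele and the steady state were shared by every group. Cells of 8 to 10 littermates were sorted to a purity above 95%. Pre-CD8 progenitors (n = 2) were marrow cells negative for lineage markers and Siglec H, positive for CD135 and CD11c, and intermediate for CD117 and MHC class II. Pre-CD4 progenitors (n = 2) were lineage-negative marrow cells that carried CD135, CD115 and CD11c, with low CD117 and no MHC class II. CD24 DCs (n = 3) were CD11c-positive, CD24-positive and CD172a-negative cells, listed in the label as MHC class II negative. CD172a DCs (n = 2) carried CD11c, MHC class II and CD172a. Common DC progenitors (CDPs, n = 3) from marrow entered the fit for its estimate of spread and are given here as a baseline level. Mature DCs were taken from digested spleen and progenitors from crushed marrow, so stage, organ and digestion cannot be told apart. Nor can fewer cells of a type and less RNA per cell be told apart in sorted bulk RNA. The labels do not say which arrays came from separate mice or pools, and p-values measure only the spread between arrays.

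The cDC1 lineage takes up dying cells, carries endosomal sensors such as Tlr3, and presents antigen on MHC class I to CD8 T cells. The cDC2 lineage presents chiefly on MHC class II and primes CD4 T cells. In the mouse, Irf8, Batf3 and Id2 are required for cDC1 development, and Irf4 acts in cDC2. Pre-CD8 and CD24 populations belong to the cDC1 lineage, and Pre-CD4 and CD172a populations to the cDC2 lineage, so a gene on the cDC1 side is higher in Pre-CD8 or CD24, and one on the cDC2 side is higher in Pre-CD4 or CD172a.

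Array means lay between 5.28 and 5.34 and array medians between 4.89 and 5.24. The interquartile range was 2.48 to 2.74 on the Pre-CD8 and Pre-CD4 arrays and 2.10 to 2.59 on the CD24 and CD172a arrays. The median standard error of a gene was 0.27 for the progenitor difference, 0.24 for the mature difference and 0.36 for the stage difference, and precision is limited by how few arrays there were. Of 34 measured genes of the cDC1 list, 30 were higher in CD24 DCs (3.21% of all genes were) and 0 were lower. Of 34 measured genes of the cDC2 list, 16 were higher in CD172a DCs (2.37% of all genes were) and 1 was lower there. Both lists were drawn up with earlier results of these data known, so these counts are no independent check. H2-Eb1, an MHC class II chain, stood at 11.41, 11.46 and 11.50 on the CD24 arrays, against 10.99 and 11.47 on the CD172a arrays, so its transcript did not follow the MHC class II gate in the label.

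Few genes were called for a lineage difference whose size differed between the stages. A gene was called when its limma p-value, Benjamini-Hochberg adjusted over all 22184 genes, was under 0.05. The stage difference was called for 229 genes (1.03% of genes tested), 118 of them positive (0.532%) and 111 negative (0.5%), the progenitor difference for 156 (0.703%) and the mature difference for 1239 (5.59%). At an unadjusted p under 0.05 these counts were 2162, 1244 and 3521. The 3 contrasts together sorted genes into classes, as a description of the values that chose them. Set early means called at both stages with 1 sign, set late means called in mature DCs and for the stage difference but not in progenitors, and lost means called in progenitors and for the stage difference but not in mature DCs. Reversed genes were called at both stages with opposite signs and for the stage difference.

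By this sorting 66 genes were set early, 189 set late, 21 lost and 3 reversed. Of the set early genes, 42 lay on the cDC1 side and 24 on the cDC2 side. Of the set late genes, 87 lay on the cDC1 side and 102 on the cDC2 side. Lost genes numbered 7 that were higher in Pre-CD8 and 14 that were higher in Pre-CD4. A further 10 genes were called for the stage difference alone. The class boundaries follow the threshold: Ms4a7, a membrane protein gene just inside, had a stage difference of 1.54 (adjusted p = 0.0498), and Ifitm6, an interferon-induced membrane protein gene just outside, had 2.59 (adjusted p = 0.05).

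**Figure D1:**
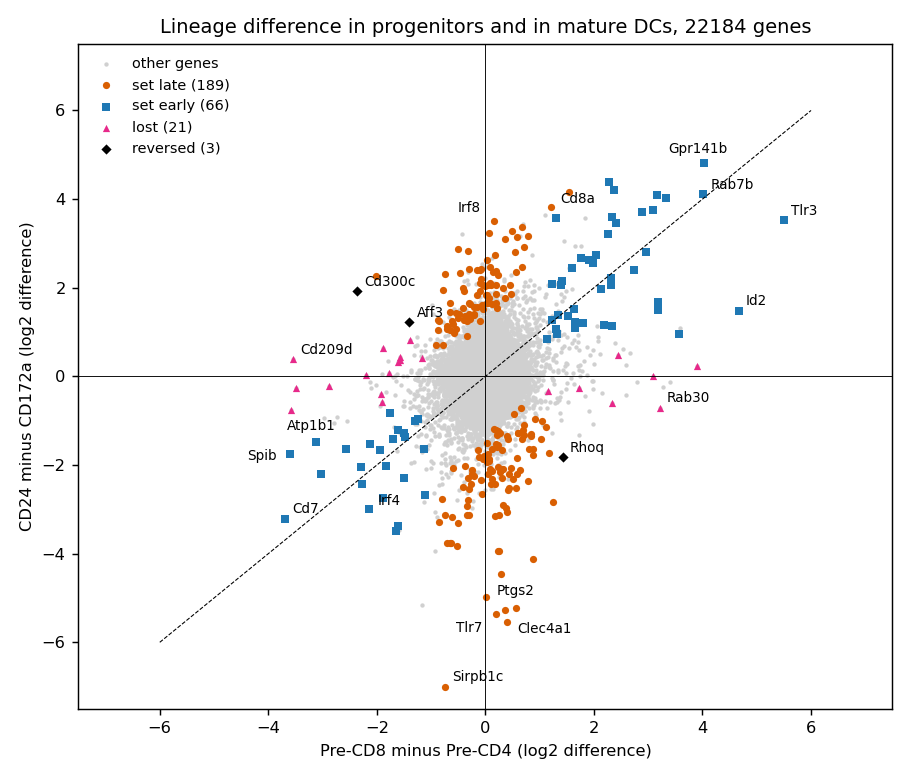
Each point is 1 of 22184 genes, with the log2 difference Pre-CD8 minus Pre-CD4 on the horizontal axis and CD24 minus CD172a on the vertical axis; the dashed line marks equal differences at both stages, and colours mark the classes. The 66 set early genes lie where both differences have 1 sign, some of them, such as Id2 and Tlr3, well off the dashed line. The 189 set late genes had median progenitor differences of -0.10 (cDC1 side) and 0.24 (cDC2 side), with some, such as P3h2, off the vertical axis. The 21 lost genes had median mature differences of -0.25 and 0.21 on these sides.

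Most genes with a mature difference belonged to no class. For 981 of the 1239 genes, the mature difference was called, the progenitor difference was not, and the stage difference was not called either, so these values do not place them as early or late. Their progenitor difference had the sign of the mature one in 683 cases, and its 95% interval lay within 1 of zero in 651. Another 66 genes were called in progenitors alone without a stage call. Among the 60 set early genes with no stage call, the 95% interval of the stage difference lay within 1 of zero in 14; the others could differ in size between stages by more than that. In the same way, 100 of the 189 set late genes had a progenitor interval within 1 of zero, and the rest could carry a progenitor difference above 1.

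Read from the progenitor side, 66 of the 156 genes called there (42.3%) were called with the same sign in mature DCs, and 131 (84.0%) had the same sign. Over all genes tested, 51.7% had the same sign at both stages. The share called again was 42 of 85 genes higher in Pre-CD8 (49.4%) and 24 of 71 lower in Pre-CD8 (33.8%). Of all genes, 5.59% had a mature call, 3.21% higher and 2.37% lower in CD24 DCs. Read from the mature side, 66 of 1239 genes (5.33%) were called with the same sign in progenitors, where 0.703% of all genes were called. Since only 156 genes had a progenitor call, the shares read from each side are not comparable.

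The class sizes depended on single arrays. Leaving out 1 array at a time gave 84 to 229 set late genes, 32 to 77 set early genes and 11 to 34 lost or reversed genes. The set late count was 84 without Pre-CD4 array 1, 104 without Pre-CD4 array 2, 109 without CD172a array 1 and 110 without Pre-CD8 array 1. The set early count was 32 without Pre-CD8 array 2, 35 and 37 when Pre-CD4 array 1 or 2 was omitted. Lost or reversed genes numbered 11 without Pre-CD4 array 1 and 13 without CD172a array 2. Of the 84 genes called set late without Pre-CD4 array 1, 82 were among the 189.

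**Figure D2:**
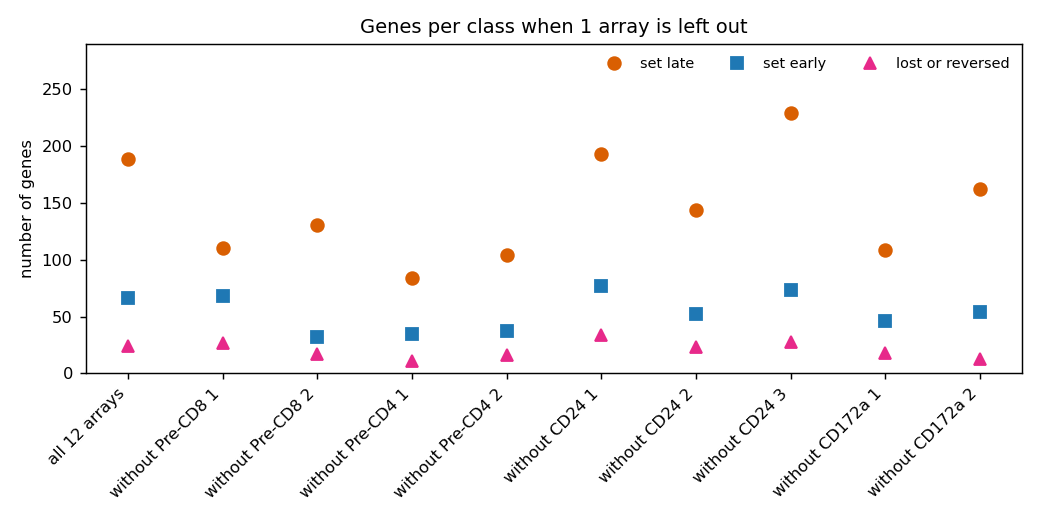
The vertical axis gives the number of genes in each class, and each position on the horizontal axis is a fit with all 12 arrays or with 1 array of the 4 groups left out. Set late runs from 84 to 229 genes and stays above set early in every fit, and set early runs from 32 to 77.

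Among genes set early on the cDC1 side, several endosomal and uptake genes carried a large lineage difference in the marrow progenitors. Tlr3, the endosomal receptor of double-stranded RNA, stood at 9.52 and 10.44 in Pre-CD8, against 4.43 and 4.52 in Pre-CD4. It stood at 10.40, 10.58 and 9.74 in CD24 DCs, against 6.66 and 6.77 in CD172a DCs. Both cDC1-side groups were high and did not overlap with the cDC2-side groups. Such separation at each called stage was a condition for naming genes of a class, so it adds nothing to the calls. Of the 20848 genes with no call in any contrast, 6776 also had Pre-CD8 and Pre-CD4 arrays that did not overlap. The Tlr3 difference was 5.51 ± 0.34 (SE) in progenitors and 3.52 ± 0.31 in mature DCs, and the stage difference of 1.98 ± 0.46 was not called (adjusted p = 0.0682). The Tlr3 stage difference was called after quantile normalization (adjusted p = 0.0429) and with the replicate block (adjusted p = 0.0485).

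Rab7b, which encodes a small GTPase in endosomes, stood at 8.43 and 8.89 in Pre-CD8, against 4.98 and 4.30 in Pre-CD4. In mature cells it stood at 9.21, 9.32 and 9.40 in CD24 DCs, against 5.41 and 4.99 in CD172a DCs. The groups were apart at both stages by almost the same amount. Its difference was 4.02 ± 0.32 in progenitors and 4.11 ± 0.30 in mature DCs, with a stage difference of -0.09 and a 95% interval of -1.04 to 0.85.

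Cd36 and Gpr141b were called at both stages without a stage call. Cd36, a scavenger receptor, stood at 6.36 and 7.84 in Pre-CD8, against 3.90 and 3.64 in Pre-CD4, and at 10.10, 10.07 and 10.13 in CD24 DCs, against 6.33 and 5.84 in CD172a DCs. Its level was 3.00 higher in CD24 DCs than in Pre-CD8 (adjusted p = 9.2e-05) and 2.32 higher in CD172a DCs than in Pre-CD4 (adjusted p = 0.00099), which left lineage differences of 3.34 and 4.02. Gpr141b, an orphan G protein-coupled receptor gene, had lineage differences of 4.03 in progenitors and 4.81 in mature DCs, with Pre-CD8 values of 7.31 and 9.88 that were further apart than those of any other group for this gene. Without Pre-CD8 array 2 the Gpr141b difference was wider in mature DCs, with a stage difference of -2.06 (adjusted p = 0.00786) against -0.78 with all arrays. Ifi205, of the interferon-inducible PYHIN family, differed by 3.16 and 4.09, and Gcsam, a signalling adaptor first known from germinal centres, by 3.08 and 3.74. Gpr141b and Ifi205 have close copies in the mouse genome, and probe sets may not tell them apart.

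Genes set early on the cDC2 side included a transcription factor gene of that lineage. Irf4 stood at 4.66 and 5.25 in Pre-CD8, against 6.53 and 7.67 in Pre-CD4, and at 5.84, 5.52 and 5.07 in CD24 DCs, against 8.09 and 8.84 in CD172a DCs. It was lower on the cDC1 side at both stages, by -2.15 ± 0.39 in progenitors (adjusted p = 0.0191) and -2.99 ± 0.35 in mature DCs (adjusted p = 0.000206). Its progenitor call was lost without Pre-CD4 array 2 or without either Pre-CD8 array. Cd7, a surface receptor of the immunoglobulin superfamily, stood at 8.21 and 6.69 in Pre-CD8, against 11.16 and 11.13 in Pre-CD4, and its differences were -3.69 and -3.21. Its progenitor call was lost without Pre-CD4 array 1 or Pre-CD8 array 2. Carmil1, a regulator of actin capping, differed by -3.03 and -2.20, Abca9, a membrane transporter, by -2.29 and -2.04, Cadm3, a cell adhesion molecule, by -1.89 and -2.73, and Hectd2, a gene of the HECT ubiquitin ligase family, by -1.84 and -2.03.

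CDPs stood close to the low population for most set early genes of the cDC1 side. The CDP mean was nearer to Pre-CD4 than to Pre-CD8 in 38 of the 42 genes, and the median levels were 7.58 in Pre-CD8, 5.20 in Pre-CD4 and 5.21 in CDPs. Tlr3 stood at 3.40, 4.08 and 4.03 on the CDP arrays. On the cDC2 side the CDP mean was nearer to Pre-CD8 in 15 of 24 genes, and Abca9, at 6.28, 6.58 and 6.68 in CDPs, lay between Pre-CD8 and Pre-CD4.

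A called stage difference split off 6 of the set early genes, of which Zfp366, Pdia5, Atrnl1 and Sirpa were named after their values were seen. Id2, an inhibitor of E protein transcription factors, stood at 10.06 and 10.14 in Pre-CD8, against 5.40 and 5.46 in Pre-CD4, and at 10.15, 10.04 and 9.87 in CD24 DCs, against 8.34 and 8.74 in CD172a DCs. Its level was -0.08 in CD24 DCs against Pre-CD8 (adjusted p = 0.88) and 3.10 higher in CD172a DCs than in Pre-CD4 (adjusted p = 1.9e-06). The Id2 difference was 4.67 ± 0.22 in progenitors and 1.48 ± 0.20 in mature DCs, a stage difference of 3.19 ± 0.30 (adjusted p = 0.000143).

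Zfp366, which encodes the nuclear protein DC-SCRIPT, narrowed likewise, with differences of 3.57 in progenitors and 0.95 in mature DCs (adjusted p of the stage difference = 0.00162). Spib, an Ets-family transcription factor known from pDCs and B cells, narrowed on the cDC2 side, with -3.60 in progenitors and -1.75 in mature DCs (adjusted p = 0.0162). The Spib stage call was lost after quantile normalization (adjusted p = 0.0795), on a common median and interquartile range, and without CD172a array 1, Pre-CD4 array 2 or Pre-CD8 array 1 (adjusted p up to 0.0862). The genes that widened were Pdia5, a protein disulfide isomerase, with 1.29 in progenitors and 3.58 in mature DCs, Sirpa with -1.64 and -3.50, and Atrnl1, an attractin-like gene, with -1.11 and -2.67. Sirpa encodes CD172a, which the mature sort used.

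Set late genes on the cDC1 side included a transcription factor required for the lineage and several of its surface markers. Irf8 stood at 12.16 and 12.12 in Pre-CD8, against 12.05 and 11.92 in Pre-CD4. In mature cells it stood at 11.88, 12.15 and 11.68 in CD24 DCs, against 7.97 and 8.80 in CD172a DCs. The CDP arrays were at 11.53, 11.51 and 11.44, so CD172a DCs alone stood low. The Irf8 difference was 0.15 ± 0.26 in progenitors and 3.51 ± 0.24 in mature DCs, and the stage difference of -3.36 ± 0.35 (adjusted p = 0.000485) kept its call under each alternative run.

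Cd8a, the CD8 alpha chain, stood at 5.01 and 6.34 in Pre-CD8, against 4.30 and 4.64 in Pre-CD4, and at 10.55, 10.18 and 10.35 in CD24 DCs, against 6.30 and 6.76 in CD172a DCs. Here the CD24 arrays were high and the other groups low, unlike Irf8. The Cd8a difference was 1.20 ± 0.35 in progenitors (adjusted p = 0.24) and 3.83 ± 0.32 in mature DCs, with a stage difference of -2.63 ± 0.47 (adjusted p = 0.0168). Both Pre-CD8 values lay above both Pre-CD4 values, and the 95% interval of the progenitor difference was 0.45 to 1.96.

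Cadm1, an adhesion molecule of cDC1, had mature and progenitor differences of 3.36 and 0.68, and Itgae, the CD103 integrin chain, 3.09 and 0.36. P3h2, a collagen prolyl hydroxylase, had 4.17 and 1.55, and Serpinb8, a serine protease inhibitor, 3.23 and 0.06. Leaving out single arrays ended the stage call of Cd8a, Cadm1, Itgae, P3h2 and Serpinb8, with a highest adjusted p of 0.0943, 0.101, 0.12, 0.177 and 0.14 in that order. Mpeg1, which encodes the pore-forming protein perforin-2, and Il12b, the p40 chain of interleukin 12, kept theirs. Il12b stood at 4.97 and 5.07 in Pre-CD8, against 4.76 and 5.12 in Pre-CD4, and at 8.76, 9.08 and 9.34 in CD24 DCs, against 6.72 and 6.46 in CD172a DCs. The progenitor groups overlapped and the mature groups were apart by 2.47.

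The 6 named set late genes on the cDC2 side had stage differences of 4.98 to 6.26, and their levels were highest in CD172a DCs. Tlr7, the endosomal receptor of single-stranded RNA, stood at 4.18 and 4.73 in Pre-CD8, against 3.65 and 4.88 in Pre-CD4. It stood at 3.69, 3.87 and 3.86 in CD24 DCs, against 8.87 and 9.47 in CD172a DCs. The progenitor groups overlapped, and CD172a DCs stood above all other arrays. The Tlr7 difference was 0.19 ± 0.36 in progenitors and -5.36 ± 0.33 in mature DCs, a stage difference of 5.55 ± 0.48 (adjusted p = 0.000107).

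Ptgs2, the inducible cyclooxygenase of prostaglandin synthesis, stood at 4.83 and 4.58 in Pre-CD8, against 4.91 and 4.49 in Pre-CD4, and at 6.42, 6.29 and 6.40 in CD24 DCs, against 11.28 and 11.41 in CD172a DCs. It was higher in both mature populations than in their progenitors, by 1.66 in CD24 DCs against Pre-CD8 and by 6.64 in CD172a DCs against Pre-CD4. Its progenitor difference was 0.01 ± 0.26 and its stage difference 4.98 ± 0.36 (adjusted p = 2.11e-05).

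Receptor genes of the signal-regulatory and C-type lectin families formed the rest of the named group. Sirpb1c had a mature difference of -7.00 and a stage difference of 6.26 (adjusted p = 4.64e-05), and Sirpb1a had -5.28 and 5.63. Clec4a1 and Clec4a4, lectin receptors of the DCIR family, had mature differences of -5.55 and -5.23, with stage differences of 5.94 and 5.79. Clec4a1 was also lower in CD24 DCs than in Pre-CD8, by -1.89 (adjusted p = 0.00084). The Sirpb1 and Clec4a genes are close copies of each other, so a probe set may read more than 1 of them. Tlr7, Ptgs2 and Clec4a1 kept their stage call under all 18 alternatives, and Sirpb1c, Sirpb1a and Clec4a4 under the 17 that tested them, since the filter on dim genes removed them.

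**Figure D3:**
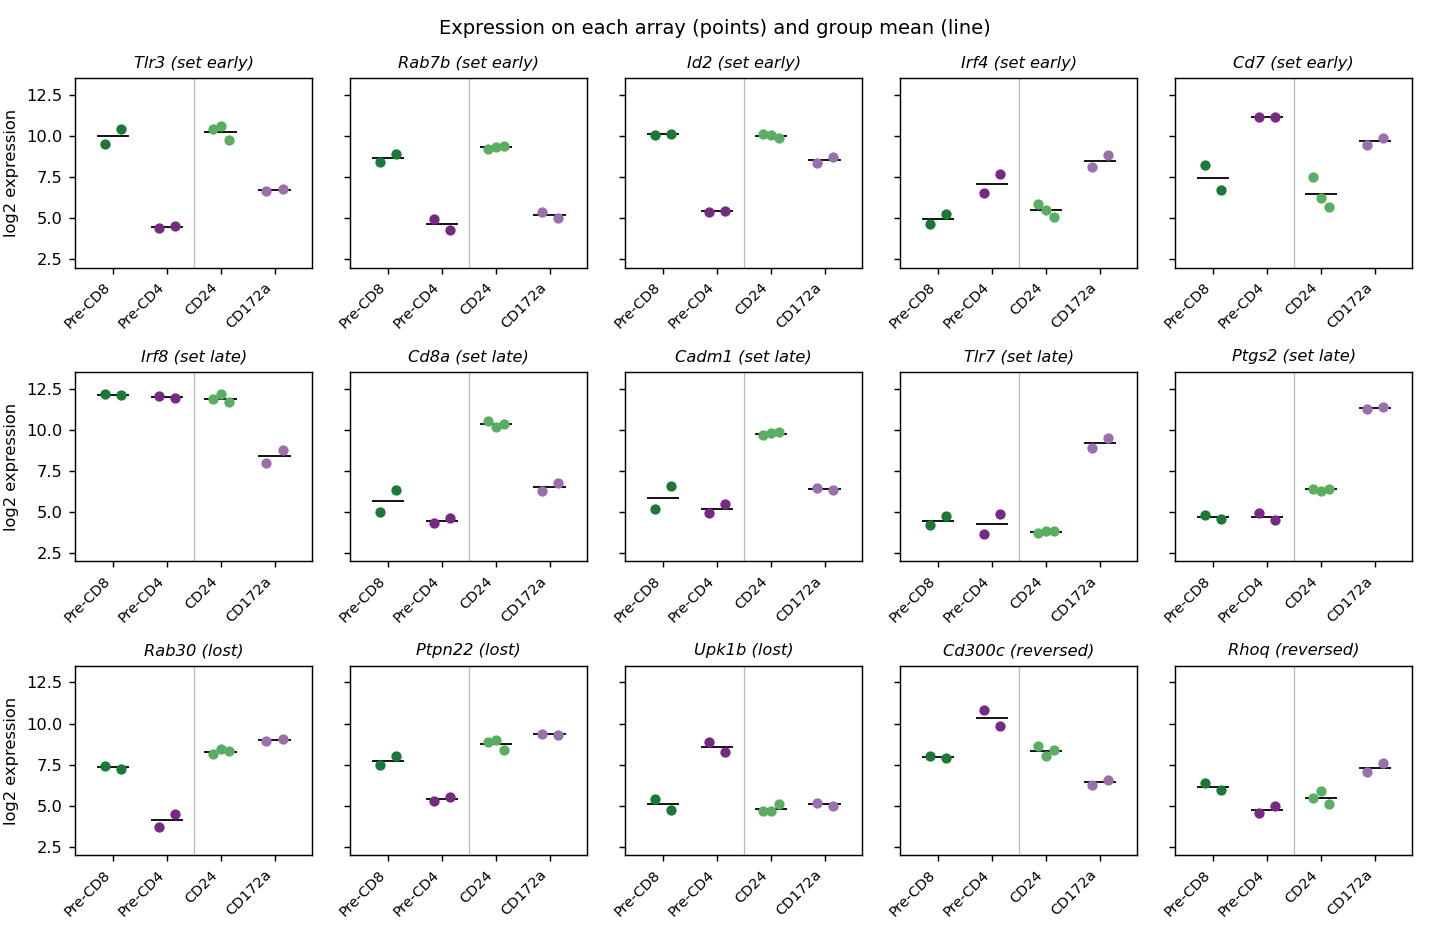
Each panel shows 1 gene, with log2 expression on the vertical axis, a point for each array and a line at the group mean, in the order Pre-CD8, Pre-CD4, CD24 and CD172a. In the set early row the cDC1-side and cDC2-side groups are apart at both stages. Arrays apart at each called stage were a condition for naming genes of a class. In the set late row CD24 and CD172a are further apart than Pre-CD8 and Pre-CD4. There CD24 also stands above Pre-CD8 for Ptgs2, and CD172a above Pre-CD4 for Cd8a. In the bottom row the difference seen in progenitors is near zero or opposite in mature DCs.

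Promoter windows of these genes were read to see which letters the late and early sets share that the sorting did not use. The windows were those of RefSeq around each start site, on GRCm38.p6, and 16994 of the 22184 genes matched at least 1. The letters GAAA, any 2 bases and GAAA again, a form of the element bound by interferon regulatory factors, were searched on both strands. This motif was present in 12 of 102 windows of set late genes on the cDC2 side (11.8%) and in 0 of 95 windows of set late genes on the cDC1 side. It was present in 3 of 43 windows (6.98%) of set early genes on the cDC1 side and 2 of 25 (8.0%) on the cDC2 side, against 681 of 20615 windows of all tested genes (3.3%). The AP-1 motif TGANTCA, searched the same way and free to overlap with the first, was present in 12 of 102 windows (11.8%) of the late cDC2 side and 5 of 95 (5.26%) of the late cDC1 side, against 7.26% of all windows. In set early genes it was present in 5 of 43 windows (11.6%) on the cDC1 side and 3 of 25 windows on the cDC2 side. A match is a description of the letters, and no binding was measured here.

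Stretches around the motif, all of them before the start site, are shown for 3 set late genes of the cDC2 side and 2 set early genes of the cDC1 side, so that the matched letters (in capitals) can be compared between classes. Ifi213 encodes a PYHIN family protein and Ddx60 an RNA helicase. The Sirpb1a stretch is at chr3:15426620-15426677 on the minus strand, Ifi213 at chr1:173599311-173599370 on the minus strand and Ddx60 at chr8:61928009-61928068 on the plus strand. The Ifi205 stretch is at chr1:174031855-174031914 on the minus strand and Tlr11 at chr14:50357767-50357826 on the plus strand.
Sirpb1a: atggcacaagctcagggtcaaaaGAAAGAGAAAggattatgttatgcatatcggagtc
Ifi213: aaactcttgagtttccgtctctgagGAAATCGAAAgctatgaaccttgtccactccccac
Ddx60: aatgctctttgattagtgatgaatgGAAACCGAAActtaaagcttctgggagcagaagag
Ifi205: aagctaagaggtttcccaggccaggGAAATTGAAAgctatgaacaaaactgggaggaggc
Tlr11: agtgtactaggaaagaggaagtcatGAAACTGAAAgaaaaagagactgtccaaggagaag

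The genes whose stretches are shown differed in the stage at which they separated the lineages. Ifi213 stood at 4.31 and 4.24 in Pre-CD8, against 3.64 and 4.07 in Pre-CD4, and at 3.68, 3.01 and 3.32 in CD24 DCs, against 6.06 and 5.72 in CD172a DCs. Its mature difference was -2.55 and its stage difference 2.97 (adjusted p = 0.0018). Ddx60 had a progenitor difference of -0.05 and a mature difference of -1.87. Tlr11, a receptor of microbial profilin, had 2.73 in progenitors and 2.39 in mature DCs. Ifi213 and Ddx60 were chosen for these letters after their values were seen.

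Genes lost between the stages included a pair that the progenitor sort used. Kit, the gene of CD117, stood at 8.85 and 9.23 in Pre-CD8, against 6.11 and 5.80 in Pre-CD4, and H2-Eb1 at 10.26 and 10.65 in Pre-CD8, against 6.05 and 7.07 in Pre-CD4. CD117 and MHC class II were gated higher in Pre-CD8 than in Pre-CD4, so these progenitor differences follow from the gates and are no finding. In mature DCs the differences were 0.01 for Kit and 0.23 for H2-Eb1.

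Of the lost genes outside the sort, Rab30, a small GTPase of the Golgi, stood at 7.43 and 7.23 in Pre-CD8, against 3.73 and 4.51 in Pre-CD4. It stood at 8.13, 8.43 and 8.33 in CD24 DCs, against 8.94 and 9.07 in CD172a DCs. The groups were far apart in progenitors, while CD172a DCs stood slightly above CD24 DCs. The Rab30 difference was 3.21 ± 0.31 in progenitors and -0.71 ± 0.29 in mature DCs (adjusted p = 0.222), a stage difference of 3.92 ± 0.43 (adjusted p = 0.000568). Ptpn22, a tyrosine phosphatase of lymphocytes and myeloid cells, had 2.34 in progenitors and -0.60 in mature DCs (adjusted p of the stage difference = 0.00128). Fgl2, a fibrinogen-like protein, had 2.44 and 0.49, and Ptpre, a receptor-type phosphatase, 1.16 and -0.34, and both lost their stage call when any of several single arrays was left out.

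Cpa3, a carboxypeptidase of mast cells and basophils, had 1.72 in progenitors and -0.25 in mature DCs, and its stage call (adjusted p = 0.038) was also lost on leaving out single arrays. The 11 measured basophil, mast cell and eosinophil markers had a mean level of 5.29 and 6.02 on the Pre-CD8 arrays, against 4.28 and 4.80 on the Pre-CD4 arrays, and 2 of them, Cpa3 and Prg2, were higher in Pre-CD8 (0.383% of all genes were). Prg2, a granule protein of eosinophils, stood at 6.35 and 8.91 in Pre-CD8, against 4.31 and 4.42 in Pre-CD4, and its progenitor call (adjusted p = 0.0296) was lost without Pre-CD8 array 2, either Pre-CD4 array or either CD172a array, among others. Neutrophil markers had a mean of 8.36 on Pre-CD8 array 2, 6.02 on Pre-CD8 array 1, and 5.86 and 6.35 on the Pre-CD4 arrays, with 0 of 12 called by limma in any of the 3 contrasts. At an unadjusted p under 0.05 there were 2 of the 12 for the progenitor difference and 2 for the stage difference. The part of such cells in the result was not tested.

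On the cDC2 side the named lost genes were highest in Pre-CD4. Upk1b, a tetraspanin of the uroplakin family, stood at 5.41 and 4.77 in Pre-CD8, against 8.89 and 8.27 in Pre-CD4, and at 4.68, 4.67 and 5.13 in CD24 DCs, against 5.17 and 5.0 in CD172a DCs. CDPs stood in between, at 6.76, 7.11 and 6.69. The Upk1b difference was -3.49 ± 0.29 in progenitors and -0.26 ± 0.26 in mature DCs, a stage difference of -3.23 ± 0.39 (adjusted p = 0.00127). Atp1b1, a subunit of the sodium pump, had -3.59 and -0.76, Cd209d, a lectin of the DC-SIGN family, -3.55 and 0.38, Arhgap29, a GTPase-activating protein, -1.93 and -0.39, and Ptprf, a receptor-type phosphatase, -2.20 and 0.04. Cd209d is one of several close copies. The Ptprf stage call was lost without CD172a array 2, either Pre-CD4 array or Pre-CD8 array 1, and the Arhgap29 call without any of 6 single arrays (adjusted p up to 0.0799 and 0.0947). Fn1, fibronectin, had -2.89 and -0.22, and its stage call (adjusted p = 0.0477) was lost when any of 8 of the 9 arrays was left out.

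The pDC genes with a called progenitor difference were higher in Pre-CD4. Of 19 measured pDC genes, 5 were lower in Pre-CD8 than in Pre-CD4 (0.32% of all genes were) and 0 were higher by limma. At an unadjusted p under 0.05, 11 of the 19 had a progenitor difference in either direction. Of the 5, Tcf4 and Ptprf were lost, Spib was set early, Cd300c was reversed, and Blnk, a B cell adaptor named after its values were seen, had no stage call. Tcf4, the E protein that specifies pDCs, stood at 7.56 and 7.68 in Pre-CD8, against 9.58 and 9.49 in Pre-CD4, and at 7.14, 6.97 and 6.66 in CD24 DCs, against 7.43 and 7.57 in CD172a DCs. In mature DCs both CD172a values still lay above the CD24 values. The Tcf4 difference was -1.91 in progenitors and -0.58 in mature DCs, and its stage call (adjusted p = 0.0456) was lost without any 1 of 8 arrays. Tcf4 kept the lost class under 4 of 18 alternatives, and was set early after quantile normalization and on a common median and interquartile range. The median progenitor difference of the pDC list was -1.26, against 0.01 over all genes. The mean level of the list was 6.19 and 6.23 on the Pre-CD8 arrays, against 7.34 and 7.19 on the Pre-CD4 arrays, and 5.90 to 6.08 on the 5 mature arrays. Siglec H, a pDC surface protein, was gated out of Pre-CD8 and not out of Pre-CD4, and the part of pDC-related cells in the result was not tested.

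The reversed class held 3 genes, and for 2 of them, Aff3 and Rhoq, the progenitor call was lost when single arrays were left out. Cd300c, a membrane receptor of the CD300 family, stood at 8.01 and 7.89 in Pre-CD8, against 10.80 and 9.84 in Pre-CD4, and at 8.62, 8.02 and 8.41 in CD24 DCs, against 6.27 and 6.58 in CD172a DCs. Pre-CD4 was the highest group and CD172a the lowest, with the cDC1-side groups in between. The Cd300c difference was -2.37 ± 0.29 in progenitors and 1.92 ± 0.27 in mature DCs, a stage difference of -4.29 ± 0.40 (adjusted p = 0.000143). CD300 genes are close copies, which probe sets may not tell apart.

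Aff3, a nuclear protein of lymphoid cells, had the same pattern, with -1.40 and 1.22 (adjusted p of the stage difference = 0.00326). Aff3 became set late without either Pre-CD4 array, Pre-CD8 array 2 or CD24 array 2. The other gene, Rhoq, had the opposite signs. It stood at 6.37 and 5.97 in Pre-CD8, against 4.54 and 4.96 in Pre-CD4, and at 5.50, 5.89 and 5.11 in CD24 DCs, against 7.04 and 7.62 in CD172a DCs. The Rhoq difference was 1.42 in progenitors and -1.83 in mature DCs (adjusted p of the stage difference = 0.00128). Its progenitor call (adjusted p = 0.0432) was lost without any 1 of the 4 progenitor arrays and after quantile normalization, and the gene was then set late. Rhoq kept its class under 8 of 18 alternatives and Aff3 under 9 of 18.

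The stage difference equals the CD172a minus Pre-CD4 difference less the CD24 minus Pre-CD8 difference, so these values show which population moved. They use the same arrays as the sorting and support nothing beyond it. Against its progenitor, CD24 differed in 1399 genes (6.31%) and CD172a in 2821 genes (12.7%). Of the 102 set late genes on the cDC2 side, CD172a was higher than Pre-CD4 in 90 (4.7% of all genes were), and 74 were called in that population alone, while CD24 was lower than Pre-CD8 in 21 (3.66% of all genes were). Of the 87 set late genes on the cDC1 side, CD24 was higher than Pre-CD8 in 39 (2.65% of all genes were) and CD172a was lower than Pre-CD4 in 55 (8.02% of all genes were), with 29 called in CD24 alone and 39 in CD172a alone.

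Named genes showed both forms of late setting on the cDC1 side. Irf8 was lower in CD172a DCs than in Pre-CD4, at -3.60 (adjusted p = 2.2e-06), and -0.24 in CD24 DCs against Pre-CD8 (adjusted p = 0.67). Mpeg1 had -2.01 in CD172a DCs and 0.38 in CD24 DCs. Cd8a instead had 4.68 in CD24 DCs against Pre-CD8, with 2.06 in CD172a DCs against Pre-CD4, and Itgae had 3.23 and 0.50. Among lost genes, CD172a was higher than Pre-CD4 in 6 of the 7 that had been higher in Pre-CD8 (4.7% of all genes were). It was lower than Pre-CD4 in 13 of the 14 that had been higher in Pre-CD4 (8.02% of all genes were). In all 3 reversed genes CD172a was called against Pre-CD4 (12.7% of all genes were). CD24 was not called against Pre-CD8 in these genes (6.31% of all genes were called). These counts follow in part from how the classes were sorted.

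**Figure D4:**
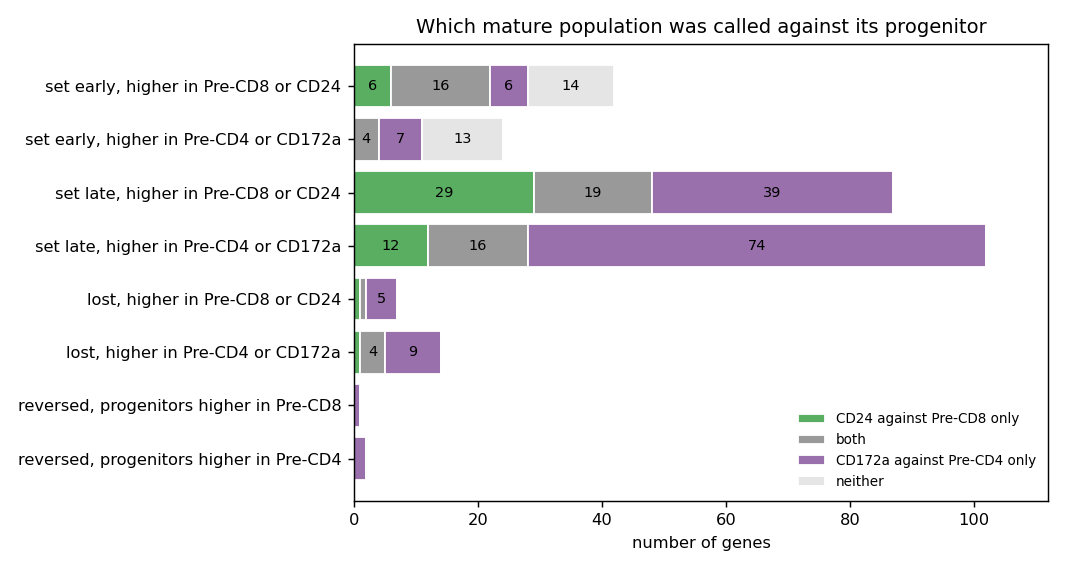
Bars give the number of genes per class and side, split by whether CD24 differed from Pre-CD8, CD172a differed from Pre-CD4, both, or neither. In the late cDC2-side bar 74 of 102 genes were called in CD172a alone, and the late cDC1-side bar is split into 29 genes in CD24 alone, 19 in both and 39 in CD172a alone.

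Transcription factor genes of DCs fell into different classes. Of 48 measured, 4 were set early (Id2, Irf4, Spib and Bcl11a), 2 set late (Irf8 and Myc) and 1 lost (Tcf4). Among all 22184 genes, these classes held 66, 189 and 21. The Myc stage call (adjusted p = 0.0487) was lost without any of 7 single arrays. Batf3, the AP-1 factor of cDC1, stood at 9.77 and 9.24 in Pre-CD8, against 6.15 and 5.70 in Pre-CD4, and at 9.62, 9.50 and 8.91 in CD24 DCs, against 7.42 and 9.06 in CD172a DCs. The CD172a arrays were far apart, and array 2 overlapped with CD24. The Batf3 difference was 3.58 ± 0.45 in progenitors and 1.10 ± 0.41 in mature DCs (adjusted p = 0.173), and the stage difference of 2.48 was not called (adjusted p = 0.0834). Its stage difference was 3.29 without CD172a array 1 and 1.66 without CD172a array 2, so the class of Batf3 depended on single CD172a arrays. Nfil3, Zbtb46, Klf4 and Notch2 were called in none of the 3 contrasts.

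At the adjusted threshold, the cDC1 list was called mainly at both stages and the cDC2 list mainly in mature DCs alone. At an unadjusted p under 0.05, 24 of 34 cDC1 genes and 12 of 34 cDC2 genes had a progenitor difference in either direction. Of all 22184 genes, 1244 did. Of 34 measured cDC1 genes, 18 were higher and 0 lower in Pre-CD8 than in Pre-CD4, where 0.383% of all genes were higher. In this list 17 were set early, 7 set late and 6 called in mature DCs without a stage call. Among all 22184 genes, these classes held 66, 189 and 981. The median difference of the cDC1 list was 1.68 in progenitors and 2.57 in mature DCs, against 0.01 and -0.01 over all genes. Of 34 measured cDC2 genes, 2 were higher in Pre-CD4, where 0.32% of all genes were, and 16 were higher in CD172a DCs, where 2.37% of all genes were. Of these, 1 (Irf4) was set early, 4 were set late and 11 were called in mature DCs without a stage call, and the list medians were -0.17 and -1.31. The lists were drawn up from genes known in mature DCs, with earlier results of these data known.

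Xcr1, the chemokine receptor that marks cDC1, was set early but near the threshold. It stood at 6.09 and 7.83 in Pre-CD8, against 4.94 and 4.44 in Pre-CD4, and at 10.22, 10.41 and 9.66 in CD24 DCs, against 5.80 and 5.62 in CD172a DCs. The lineages were apart at both stages, with the wider gap in mature DCs. Its difference was 2.27 in progenitors (adjusted p = 0.0296) and 4.39 in mature DCs, and it kept the set early class under 8 of 18 alternatives. Clec12a, an inhibitory lectin receptor on the cDC2 list, went against the list. It was set late on the cDC1 side, with 1.83 in mature DCs and -0.16 in progenitors.

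Toll-like receptor genes separated the lineages at different stages. Of 19 measured genes of the Toll-like receptor list, Tlr3 and Tlr11 were set early on the cDC1 side (66 of all 22184 genes were set early). Tlr12 was set late on the cDC1 side, and Tlr7 and Tlr1 were set late on the cDC2 side (189 of all genes were set late). Tlr12, which like Tlr11 senses profilin, had 0.20 in progenitors and 2.38 in mature DCs. The Tlr12 stage call (adjusted p = 0.0177) was lost without either CD172a array, Pre-CD4 array 1 or Pre-CD8 array 2 (adjusted p up to 0.112), which leaves it called in mature DCs alone. Tlr1, a partner of Tlr2 in lipopeptide sensing, stood at 7.36 and 7.68 in Pre-CD8, against 6.66 and 6.63 in Pre-CD4, and at 7.24, 7.08 and 6.95 in CD24 DCs, against 8.25 and 9.21 in CD172a DCs. Pre-CD8 stood above Pre-CD4 and CD172a DCs above CD24 DCs, and the Tlr1 stage difference was 2.52 (adjusted p = 0.00666).

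Antigen presentation genes were read in separate lists for MHC class I and class II. The stage difference was called by limma for 0 of 16 measured MHC class I presentation genes (5 at an unadjusted p under 0.05). It was called for 2 of 15 measured MHC class II presentation genes, H2-Eb1 and H2-DMb2, against 1.03% of all genes. Of the MHC class I genes, 8 were higher in CD24 DCs, where 3.21% of all genes were higher, and 7 of these had no progenitor call and no stage call. The other, Wdfy4, was also higher in Pre-CD8. Wdfy4, which is needed for cross-presentation in mouse cDC1, stood at 9.79 and 10.54 in Pre-CD8, against 7.91 and 7.73 in Pre-CD4, and had differences of 2.34 and 1.15. Of the MHC class II genes, 5 were higher in Pre-CD8 (0.383% of all genes were), of which H2-Aa, H2-Ab1 and H2-Eb1 encode the gated protein. H2-DMb2, a chain of the peptide-loading molecule H2-M, was set late on the cDC2 side, with 1.02 in progenitors and -1.42 in mature DCs (adjusted p of the stage difference = 0.00321).

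Other lists differed in how many classed genes they held. Over all 22184 genes, 66 were set early, 189 set late and 21 lost. Of 25 measured C-type lectin genes, 1 was set early (Ly75, the CD205 uptake receptor, with 2.04 and 2.74), 5 were set late and 1 was lost. Of 23 measured interferon-stimulated genes, 5 were higher in CD172a DCs (2.37% of all genes were), 1 was higher in CD24 DCs (3.21%) and 1 was set late, Ddx58, the RNA sensor RIG-I, with 0.09 in progenitors and -2.08 in mature DCs. The Ddx58 stage call (adjusted p = 0.0297) was lost on leaving out single arrays. Of 24 chemokine and cytokine genes, Cxcl9 was set early on the cDC1 side, with 2.96 and 2.82, and Ccl9 on the cDC2 side, with -2.57 and -1.63. Of 17 Notch pathway genes, 3 were called in mature DCs (5.59% of all genes were) and 0 by limma in progenitors (0.703%) or for the stage difference (1.03%), where 2 and 5 had an unadjusted p under 0.05. Cell cycle genes (29 measured) and tissue-dissociation stress genes (20 measured) had 0 called by limma in any of the 3 contrasts. At an unadjusted p under 0.05 there were 6 cell cycle genes and 1 stress gene in the mature difference (3521 of all 22184 genes). In the stage difference there was 1 cell cycle gene (2162 of all genes). Both lists differed in level between the stages. The stress list had means of 9.34 to 9.90 on the mature arrays, against 7.73 to 8.27 on the Pre-CD8 and Pre-CD4 arrays. The cell cycle list had 6.33 to 7.28, against 8.93 to 9.32. The cause of these shifts was not tested.

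**Figure D5:**
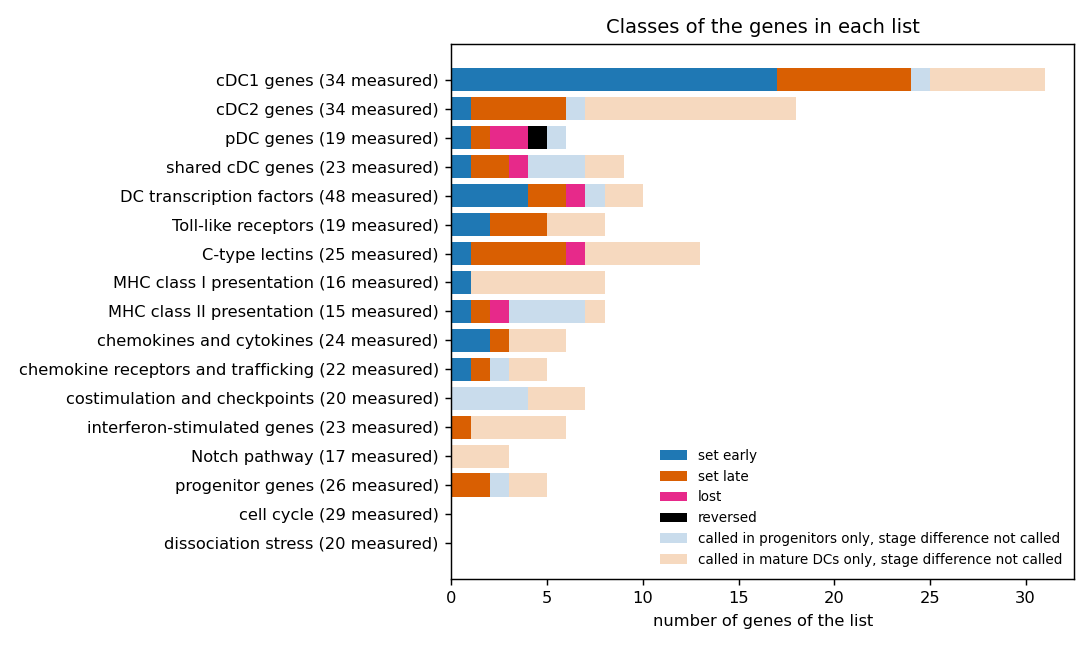
Bars give the number of genes of each list by class, with genes called at a single stage but not for the stage difference in pale colours. The cDC1 list has 17 set early and 7 set late genes of 34 measured, and the cDC2 list has 1 set early and 5 set late genes of 34.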

How the data were processed

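RNA of sorted cells was amplified (NuGEN Ovation Pico), biotin-labelled and hybridised to 12 arrays, per the labels' protocols. The log2 values per probe set and array were used as deposited by the authors; their background correction is not given in the sources used here, nor is their normalization. Of 35145 probe sets, 23525 had 1 gene symbol, 1810 several and 9810 none, and those with none or several were left out. This gave 22184 genes, of which 1082 were represented by their brightest probe set of several. No detection calls were used, so low values may be background.

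All 12 arrays entered 1 limma fit (limma 3.58.1, R 4.3.3, lmFit and eBayes) with a mean per group, residual degrees of freedom 7 and prior degrees of freedom 6.18. Tests were two-sided, with Benjamini-Hochberg adjustment over all genes, and were tested on simulated data. Members, classes and the 26 gene lists were chosen with earlier results of these data known. Named genes were, per class and direction, up to 6 with the largest difference whose arrays did not overlap at each called stage, outside the sort genes and unnamed loci. A panel of 20 genes and up to 4 genes per list were added. Of the panel, Zeb2 was not analysed here. Alternatives varied normalization, scale, dim-gene filter, probe-set summary, arrays, replicate block, effect size and threshold. Figures were drawn with matplotlib 3.10.9.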

Additional observations from a re-analysis of the deposited data

Results flagged for a closer look

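The following stage differences are brought up because the test of the difference between stages passed the threshold, 229 genes in all. Positive values mean a progenitor difference above the mature one. No cause was tested for any of them.

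Positive values among set late genes of the cDC2 side were 6.26 for Sirpb1c, 5.94 for Clec4a1, 5.79 for Clec4a4, 5.63 for Sirpb1a, 5.55 for Tlr7 and 4.98 for Ptgs2. In the same class were Clec4b1 at 4.09, Adgre1, which encodes F4/80, at 3.11, Ccr3, an eotaxin receptor, at 2.78, Cd22 at 2.65, Tlr1 at 2.52, H2-DMb2 at 2.43, Ddx58 at 2.17, Clec4n, which encodes Dectin-2, at 1.96, Myc at 1.90 and Ms4a7 at 1.54. Leaving out single arrays ended the stage call of Clec4b1, Ccr3, Ddx58, Clec4n, Myc and Ms4a7. Ccr3 kept the set late class under 5 of 17 alternatives, Clec4n under 10 of 18, Myc under 7 of 18 and Ms4a7 under 3 of 17.

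Negative values among set late genes of the cDC1 side were -4.28 for Ly6c2, -3.36 for Irf8, -3.17 for Serpinb8, -2.73 for Itgae, -2.69 for Cadm1, -2.63 for Cd8a, -2.62 for P3h2, -2.39 for Il12b, -2.38 for Mpeg1, -2.18 for Tlr12 and -2.13 for Myb. Leaving out single arrays ended the stage call of Serpinb8, Itgae, Cadm1, Cd8a, P3h2, Tlr12 and Myb.

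Among genes lost after a progenitor difference, the values were 3.92 for Rab30, 3.67 for H2-Eb1, 3.08 for Kit, 2.94 for Ptpn22, 1.98 for Cpa3, 1.95 for Fgl2 and 1.5 for Ptpre on the cDC1 side. The progenitor sort gated on MHC class II and CD117, so the progenitor differences of H2-Eb1 and Kit follow from the gates and are no finding. On the cDC2 side they were -3.93 for Cd209d, -3.23 for Upk1b, -2.83 for Atp1b1, -2.67 for Fn1, -2.24 for Ptprf, -1.53 for Arhgap29 and -1.34 for Tcf4. The reversed genes had -4.29 (Cd300c), 3.25 (Rhoq) and -2.62 (Aff3). The set early genes Id2 and Spib, whose difference was narrower in mature DCs, had 3.19 and -1.84. Leaving out single arrays ended the stage call of Cpa3, Fgl2, Ptpre, Fn1, Ptprf, Arhgap29, Tcf4 and Spib.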

How the results depend on the processing

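Directions held for all 46 named genes with a stage call under the alternatives run, and 16 kept the call in each alternative that tested them: 13 in all 18, and Sirpb1c, Sirpb1a and Clec4a4 in 17. The filter on dim genes removed 8 of the 46. Counts moved more. At an adjusted p under 0.01, genes called were 88 for the stage difference, 78 in progenitors and 610 in mature DCs, with 37 set early, 75 set late and 10 lost or reversed. Tested against a log2 difference of 1, these were 25, 19, 133, 6, 15 and 6. With the 9 arrays of the 4 groups alone, there were 134 stage calls, 100 progenitor calls, 44 set early, 114 set late and 14 lost or reversed genes. On a common median and interquartile range, 78 were called in progenitors, 39 set early and 16 lost or reversed. Quantile normalization gave 327 stage calls, and a filter on dim genes 36 lost or reversed. Leaving out single arrays gave 99 to 278 stage calls, 58 to 194 in progenitors, 556 to 1461 in mature DCs, 32 to 77 set early, 84 to 229 set late and 11 to 34 lost or reversed. Stage calls were 99 without Pre-CD4 array 1, 125 without Pre-CD4 array 2, 130 without CD172a array 1 and 145 without Pre-CD8 array 1. Progenitor calls were 58 without Pre-CD8 array 2, 64 and 82 without Pre-CD4 array 1 or 2, and mature calls were 556 without CD172a array 1. Without CD172a array 1, 84 of 130 stage calls were positive, and without CD172a array 2, 68 of 190, against 118 of 229. Without the 5 arrays numbered 1 the counts were 84 (stage), 89, 508, 35, 63 and 19. Same-number arrays deviated together at r = -0.16 to 0.42: over 0.1 in all 6 pairs among Pre-CD8, Pre-CD4 and CD24, and in 0 of 6 pairs with CD172a (highest 0.02). In a group of 2 arrays the deviations mirror each other. Pairs between such groups therefore repeat the same r, as 0.41 for Pre-CD4 with Pre-CD8, and are not separate evidence. Not every pair passed and the labels do not say what a number marks, so the numbers were not read as pairing. With the replicate block, 292 stage calls, 182 in progenitors, 1443 in mature DCs, 78 set early, 236 set late and 33 lost or reversed were counted; Ifitm6 became set late, Prg2 lost or reversed, and Ms4a7 lost its stage call. No cause of these shifts was tested.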

Other observations

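Ly6c2, a surface protein gene of monocytes and pDCs, and Myb, a progenitor transcription factor, were set late on the cDC1 side, although both were lower in the mature populations. Ly6c2 stood at 9.27 and 9.83 in Pre-CD8, against 11.58 and 11.56 in Pre-CD4, and at 6.95, 6.96 and 5.84 in CD24 DCs, against 4.84 and 3.79 in CD172a DCs. It was -2.97 in CD24 DCs against Pre-CD8 and -7.25 in CD172a DCs against Pre-CD4. Its progenitor difference of -2.02 missed the threshold (adjusted p = 0.0575) and its mature difference was 2.27. It was placed with the lost or reversed genes without CD24 array 1 or 3 and under the filter on dim genes. Ly6c2 has close copies in the mouse genome. Myb stood at 10.48, 10.50 and 10.45 in CDPs, with -1.03 in CD24 DCs against Pre-CD8 and -3.16 in CD172a DCs against Pre-CD4.

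Ribosomal protein genes were gathered after their values were seen. Their median level was 8.39 on CD172a array 1 and 9.36 on CD172a array 2, against 9.36 to 10.09 on the other 7 arrays of the 4 groups. Of 63 measured, 6 were higher in CD24 DCs (3.21% of all genes were) and 2 of these were set late (189 of all 22184 genes were).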
